A study of Homo sapiens with 6 samples.

Results

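The HOX genes are the 39 human homeobox genes that lie in 4 clusters, HOXA to HOXD. They were taken from the deposited table as every gene whose symbol is HOX, a cluster letter and a paralogue number, which selected 39 of 19892 genes. RNA had been sequenced from HEK293, a human cell line established from embryonic kidney, as 3 wild-type libraries and 3 libraries of HEK293 cells in which the gene CNBP was knocked out with CRISPR-Cas9. All cells were grown in the same serum-containing medium, and how many knockout clones were used is not stated. The CNBP protein binds nucleic acids through CCHC zinc knuckles, and the series is about G-rich elements that it binds in mRNA coding sequences. The table gives 1 FPKM value (fragments per kilobase of transcript, scaled to the mapped fragments of the library) per gene and group, so the values carry no spread between libraries, standard error or p-value, and the depth is unknown. In such bulk RNA, fewer cells that express a gene and less of its RNA per cell cannot be told apart.

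HOX proteins are transcription factors that bind DNA through the homeodomain, whose recognition helix lies in the major groove. In each cluster all the genes point the same way and are numbered from the 3′ to the 5′ end, and in vertebrate embryos the low numbers are switched on earlier and further towards the head than the high numbers. Genes of the same number in different clusters are paralogues that arose when the ancestral cluster was duplicated. Polycomb complexes keep silent HOX genes off, trithorax and MLL complexes keep active ones on, and adult cells and cell lines often retain the HOX pattern of the tissue they came from.

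The coding sequence of the recognition helix shows how alike the members are. The stretches below are from GENCODE release 29, 5′ to 3′, and span 51 bases around the codons for the tryptophan, phenylalanine, glutamine and asparagine that mark this helix, which are in capitals. HOXB2 and HOXB6, the HOXB genes with the lowest and the highest ratio, are shown first. HOXC6, a paralogue of HOXB6, and the pair HOXA13 and HOXD13, whose ratios had opposite signs, follow.
HOXB2: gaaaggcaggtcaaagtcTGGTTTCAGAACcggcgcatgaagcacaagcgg
HOXB6: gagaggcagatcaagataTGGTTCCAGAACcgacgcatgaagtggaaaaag
HOXC6: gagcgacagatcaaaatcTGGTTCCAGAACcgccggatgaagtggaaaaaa
HOXA13: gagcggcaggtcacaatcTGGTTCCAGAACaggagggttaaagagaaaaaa
HOXD13: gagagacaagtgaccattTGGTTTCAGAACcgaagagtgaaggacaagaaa

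Over the whole homeobox of 180 bases, 42 pairs of members with the same paralogue number were 69.4% to 90.6% identical, with a median of 81.7%, and 699 other pairs had 47.8% to 91.1%, with a median of 60.6%. HOXB6 was 86.7% identical to HOXA6 and 82.8% to HOXC6, but 88.9% to HOXB7 of another number, and HOXA13 was 73.3% identical to HOXD13. Despite this likeness, long identical stretches were few. Among 725 pairs of members that do not overlap in the genome, the longest run of identical bases between their transcripts was 62, between HOXB3 and HOXD3, and 3 pairs shared a run of 50 or more. HOXB6 shared a run of 51 bases with HOXB7, and HOXB5 a run of 50 with HOXB4.

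HEK293 cells expressed most of the family, and the wild-type and knockout columns held nearly the same set. At least 1 FPKM in one column was reached by 35 members, and these were compared. The other 4 were HOXD1 (0.899 and 0.695 FPKM), HOXD12 (0.479 and 0.505 FPKM), HOXC12 (0.0378 and 0.0244 FPKM) and HOXB1 (0.00710 FPKM, and listed at 0 in knockout). Here and below, the wild-type value of a pair comes first and the knockout value second. HOXC12 and HOXD12 are the whole of paralogue group 12.

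HOXB2, which patterns the hindbrain in mouse embryos, had the highest level of the family on both sides, with 119 and 82.4 FPKM. HOXA9, a regulator of blood stem cells that is known from leukaemia, came next with 64.8 and 66.9 FPKM, and HOXA10, known for its role in the uterus, followed with 54.8 and 62.6 FPKM. HOXD10, a gene of lumbar motor neurons and the hind limb, ranked 4 in both columns with 41.0 and 46.1 FPKM. HOXB3 ranked 5 in wild type, with 37.4 FPKM against 43.6 in knockout. HOXB6 moved from rank 9 to rank 5, with 26.9 and 43.8 FPKM.

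**Figure D1:**
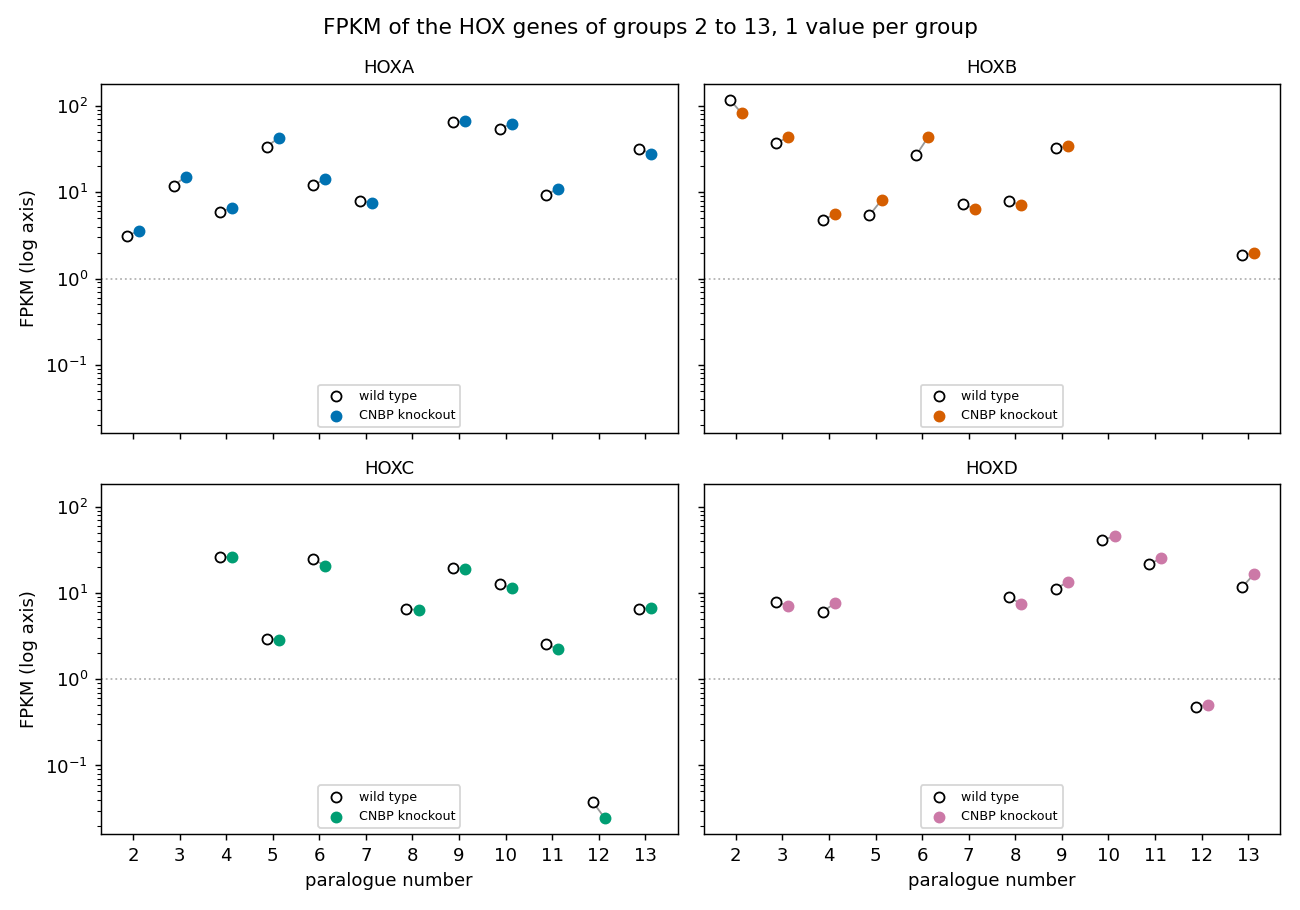
FPKM on a log axis (vertical) of the HOX genes of groups 2 to 13 against paralogue number (horizontal), in 1 panel per cluster. Open points are the wild-type value and filled points the knockout value, each 1 deposited value per group; the dotted line marks 1 FPKM. Most pairs of points lie close together, and HOXB2, HOXB5, HOXB6 and HOXD13 stand furthest apart among the compared genes.

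The family as a whole differed little between the columns. Differences are given as the log2 ratio of the knockout FPKM over the wild-type FPKM, and the counts below are of genes that differed 1.5-fold or more. The summed FPKM of the 39 genes was 696 in wild type and 718 in knockout, 3.16% higher. The 35 compared genes had a median log2 ratio of 0.09, against -0.01 over all 13219 compared genes. A ratio above 0 was found for 21 of the 35, and for 48.7% of all compared genes. HOXB6 and HOXB5 were higher by 1.5-fold or more and no HOX gene was lower by that much, that is 2 and 0 of 35, where 1.48% of all compared genes were higher and 2.78% lower. At a looser threshold, a log2 ratio of 0.32 either way, 6 of 35 (17.1%) were higher (background 6.02%) and 1 (2.86%) was lower (background 9.65%). At 2-fold none was higher or lower (background 0.34% and 0.681%). The 6 were HOXA3, HOXA5, HOXB5, HOXB6, HOXD4 and HOXD13, and the 1 was HOXB2. With so few genes past any threshold, the counts say little about the family.

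**Figure D2:**
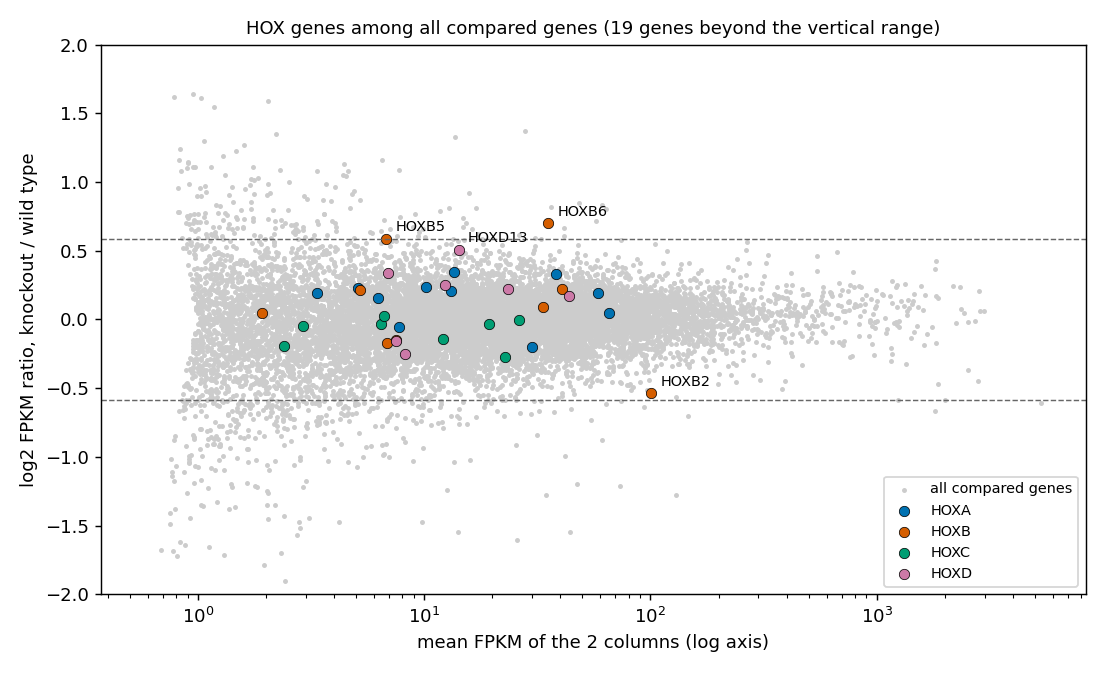
The log2 ratio of knockout over wild type (vertical) against the mean FPKM of the 2 columns on a log axis (horizontal). Grey points are all compared genes, of which 19 lie beyond the vertical range, coloured points are the compared HOX genes by cluster, and dashed lines mark 1.5-fold. HOXB6 and HOXB5 lie on or above the upper line and HOXB2 just inside the lower one.

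The HOXB cluster on chromosome 17 held both the highest and the lowest ratios of the family. HOXB6, whose paralogues act in the trunk, had 26.9 and 43.8 FPKM, a 1.63-fold difference (log2 ratio 0.70). HOXB5, its neighbour towards the 3′ end, had 5.43 and 8.16 FPKM, a 1.503-fold difference (log2 ratio 0.59). HOXB2 lay on the other side, with 119 and 82.4 FPKM, a log2 ratio of -0.53 and 1.45-fold lower in knockout. These values can be set against genes of like level. Of 3371 genes with a mean of 20 to 50 FPKM, the middle 95% had log2 ratios between -0.38 and 0.34. For 4369 genes of 5 to 20 FPKM these limits were -0.52 and 0.42, and for 1574 genes of 50 to 110 FPKM they were -0.35 and 0.32. HOXB6, HOXB5 and HOXB2 lay outside the range of their band, as did HOXD13 (log2 ratio 0.51) among genes of 5 to 20 FPKM. The bands describe genes in these columns, not the spread between libraries.

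The genes between and beyond these 3 were closer to 0. HOXB3 (log2 ratio 0.22) and HOXB4 (0.21), a gene known for expanding blood stem cells, were higher in the knockout column. HOXB7 (7.28 and 6.46 FPKM, log2 ratio -0.17) and HOXB8 (7.86 and 7.09 FPKM, -0.15) were lower. Towards the 5′ end, HOXB9 had 32.3 and 34.5 FPKM (0.09) and HOXB13, a marker of prostate epithelium, 1.89 and 1.95 FPKM (0.05). Along the cluster the sign of the ratio thus changed 3 times between HOXB2 and HOXB9. HOXB2 alone made up 49.1% of the summed HOXB FPKM in wild type and 35.3% in knockout, while HOXB6 went from 11.1% to 18.8%. The sums over the cluster were 243 and 233 FPKM, a log2 ratio of -0.06. Without HOXB2 it was 0.29, an alternative chosen after seeing the data.

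HOXB5 and HOXB6 are not cleanly separated from HOXB3 in the annotation. In GENCODE release 29 the HOXB3 gene spans HOXB4, HOXB5 and HOXB6 on the same strand, shares 433 exon bases with HOXB6 and 159 with HOXB4, and shares none with HOXB5. The antisense gene HOXB-AS3 overlaps exons of HOXB5 and HOXB6. Whether the authors counted by strand was not given in the sources used here. HOXB2 has no same-strand overlap with a coding gene. Genes free of such overlaps numbered 12 among the compared HOX genes, 7 of them with a ratio above 0 and none past 1.5-fold. HOXB2 and HOXB13 alone were left in HOXB, whose median was then -0.24 in place of 0.09, and the summed HOXA ratio was -0.038 in place of 0.13. The part of these overlaps in the ratio of HOXB6 was not tested.

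The HOXA cluster on chromosome 7 was higher in the knockout column by a small amount at most of its genes. Of its 11 genes, all of which were compared, 9 had a ratio above 0, and the median was 0.19. The sum went from 241 to 264 FPKM, 9.60% higher. The highest ratio was that of HOXA3, which is needed for the thymus and parathyroid in mice, with 12.0 and 15.2 FPKM (log2 ratio 0.34). HOXA5, a gene of lung development, had 34.0 and 42.9 FPKM (0.33). HOXA2 (3.13 and 3.58 FPKM, log2 ratio 0.19), which patterns the hindbrain and the second pharyngeal arch, HOXA4 (5.94 and 6.62 FPKM, 0.16) and HOXA6 (12.2 and 14.1 FPKM, 0.21) had smaller ratios of the same sign. None of the 11 reached 1.5-fold.

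The posterior HOXA genes were more mixed. HOXA10 had a log2 ratio of 0.19 and HOXA11, which acts with HOXD11 in the kidney and forearm, of 0.24 (9.37 and 11.1 FPKM). HOXA9 was nearly level at 0.05. HOXA13, mutated in hand-foot-genital syndrome, went the other way, with 32.0 and 27.9 FPKM (log2 ratio -0.20). HOXA7 was the only other HOXA gene below 0, at 7.86 and 7.56 FPKM (-0.06). A readthrough model listed separately, HOXA10-HOXA9, had 5.48 and 8.67 FPKM, a 1.58-fold difference (log2 ratio 0.66). It shares 397 exon bases with HOXA9 and 368 with HOXA10, so reads of these 3 models cannot be assigned with certainty.

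The HOXC cluster on chromosome 12 was the flattest. Of 8 compared genes 7 had a ratio below 0, but the median was -0.04 and the range ran from -0.27 to 0.02. With the median of the cluster's neighbours taken off, the HOXC median was 0.050. HOXC6 was at the low end with 24.8 and 20.6 FPKM. HOXC11 had 2.55 and 2.23 FPKM (log2 ratio -0.19) and HOXC10, which marks lumbar motor neurons, 12.7 and 11.5 FPKM (-0.14). HOXC4, the most abundant of the cluster, had 26.2 FPKM in both columns, and HOXC9 (19.6 and 19.1 FPKM, -0.04), HOXC8 (6.52 and 6.37 FPKM, -0.03) and HOXC5 (2.94 and 2.85 FPKM, -0.05) were nearly level. HOXC13, a gene of hair and nails, was the one member above 0, at 6.58 and 6.69 FPKM (0.02). The sums were 102 and 95.5 FPKM. HOXC4 and HOXC6 share 484 exon bases on the same strand, and the values of the pair depend on how reads were divided between them.

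In the HOXD cluster on chromosome 2, 5 of 7 compared genes had a ratio above 0. The 4 compared posterior genes were all higher in the knockout column: HOXD13 had the largest ratio of the cluster, with 11.8 and 16.7 FPKM (1.42-fold, log2 ratio 0.51). HOXD13 is the gene of the digits that is mutated in synpolydactyly, and it overlaps no other gene in the annotation used. HOXD9 had 11.3 and 13.4 FPKM (0.25), HOXD11 had 21.7 and 25.3 FPKM (0.22) and HOXD10 had 41.0 and 46.1 FPKM (0.17). HOXD10 and HOXD11 share 452 exon bases. Nearer the 3′ end the signs were mixed, with HOXD4 at 6.09 and 7.69 FPKM (0.34), HOXD8 at 8.93 and 7.49 FPKM (-0.25) and HOXD3 at 7.89 and 7.09 FPKM (-0.15). HOXD3 and HOXD4 overlap on the same strand. They share 2206 and 1178 exon bases with a further coding model, which was listed at 0 FPKM in both columns. The cluster's median was 0.22, and its sum went from 109.97 to 125.01 FPKM, 13.7% higher.

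Set by paralogue number, most groups had members on both sides of 0. In group 13 the log2 ratios were -0.20 for HOXA13, 0.05 for HOXB13, 0.02 for HOXC13 and 0.51 for HOXD13. In group 6 they were 0.21 for HOXA6, 0.70 for HOXB6 and -0.27 for HOXC6, and in group 2 they were 0.19 for HOXA2 and -0.53 for HOXB2. HOXC4, HOXC5, HOXC6, HOXC9, HOXC10 and HOXC11 each had the lowest ratio of their group. HOXC8 had the highest of its group, where HOXD8 was lowest, and in group 13 HOXA13 was lowest. Groups 7 and 8 were the ones with no member above 0: HOXA7, HOXB7, HOXB8, HOXC8 and HOXD8 had log2 ratios between -0.25 and -0.03. With the neighbours' median taken off, HOXA7 (0.086) and HOXC8 (0.057) lay above 0. By position class, the 6 compared anterior genes (numbers 1 to 3) had a median of 0.21, the 15 central genes (4 to 8) of -0.00 and the 14 posterior genes (9 to 13) of 0.07. The summed FPKM gave another order of the classes. For all 8 anterior genes, HOXB2 among them, it went from 185 to 158 FPKM (log2 ratio -0.23), for the central genes from 188 to 213 FPKM (0.18), and for all 16 posterior genes from 323 to 346 FPKM (0.10). These are descriptions of 35 values without replicates.

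**Figure D3:**
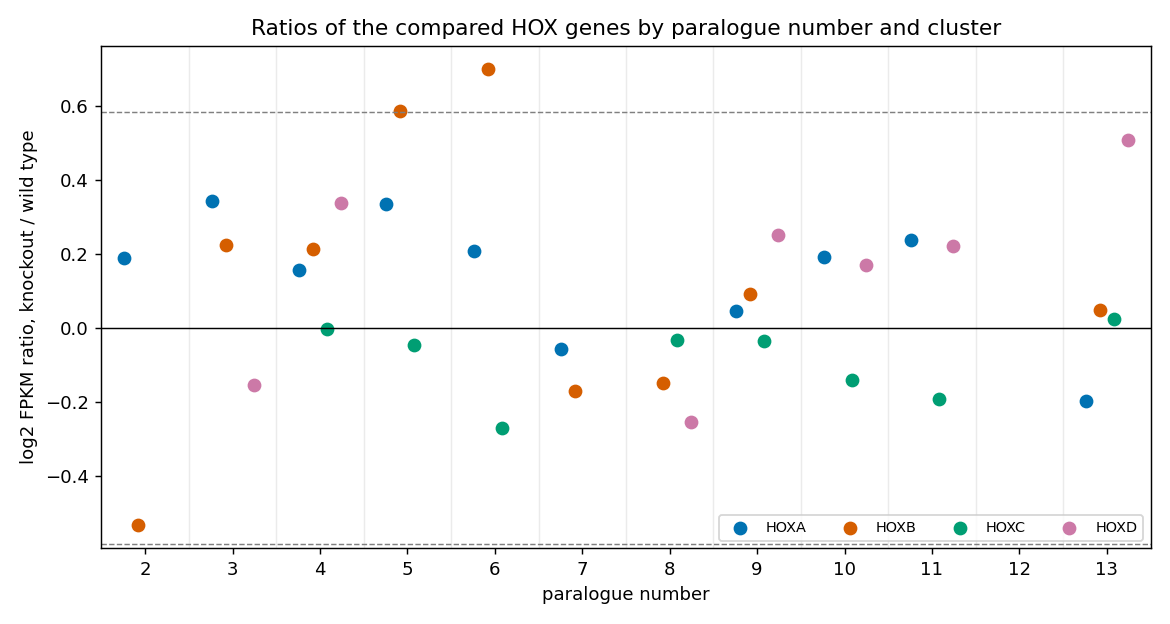
The log2 ratio of knockout over wild type (vertical) of the compared HOX genes of groups 2 to 13 against paralogue number (horizontal), coloured by cluster. Dashed lines mark 1.5-fold; group 12 has no compared gene. HOXA points lie mostly above 0, HOXC points lie close to or below it, and groups 7 and 8 have no point above 0.

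The members of groups 7 and 8 include the best known targets of a microRNA that the clusters themselves encode. The miR-196 genes lie beside HOX9 genes, and miR-196 directs cleavage of HOXB8 mRNA and has sites in HOXC8, HOXD8 and HOXA7. The mature sequences, from RefSeq on GRCh38.p14, are shown with the seed, bases 2 to 8, in capitals, because the seed sets which mRNAs they pair with.
hsa-miR-196a-5p: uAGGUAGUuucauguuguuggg
hsa-miR-196b-5p: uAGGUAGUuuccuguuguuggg
miR-196a and miR-196b share the seed AGGUAGU. The 4 HOX genes named here, not a full list of miR-196 targets, had log2 ratios of -0.15 (HOXB8), -0.03 (HOXC8), -0.25 (HOXD8) and -0.06 (HOXA7). These genes were picked after their values were seen, the microRNAs were not measured in the table, and no part of theirs in the ratios was tested.

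Each cluster was also set against the 10 nearest compared coding genes on each side, taken in the gene order of GENCODE release 29. The HOXA cluster stood apart from its surroundings: 17 of its 20 neighbours had a ratio below 0, and their median was -0.14 against 0.19 for the cluster. CREB5, which encodes a cAMP response element binding factor and is the compared gene 4 places beyond HOXA13, was far outside them with 16.6 and 71.1 FPKM (4.29-fold). The neighbours of HOXD had a median of -0.08, with 13 of 20 below 0, against 0.22 for the cluster. HOXB (0.09 against 0.07 for its neighbours) and HOXC (-0.04 against -0.09) were close to their surroundings. COPZ2, a coatomer subunit gene beside HOXB, was 1.53-fold higher and TTLL6 1.63-fold lower (2.57 and 1.58 FPKM), and MAP3K12, a kinase gene beside HOXC, was 1.51-fold higher. TTLL6 (log2 ratio -0.71) lay inside the middle 95% of 2785 genes with a mean of 1 to 5 FPKM, -0.86 to 0.72.

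The neighbourhoods are themselves duplicates of one another, and some of the gene families they share were compared after the values were seen. Of the HNRNPA genes, which encode splicing factors, HNRNPA2B1 beside HOXA had a log2 ratio of -0.16, HNRNPA1 beside HOXC of -0.18 and HNRNPA3 beside HOXD of -0.40. The heterochromatin protein genes beside the clusters had log2 ratios of 0.03 (CBX3, HOXA), -0.04 (CBX1, HOXB) and -0.45 (CBX5, HOXC). The NFE2L factors had 0.12 (NFE2L3, HOXA), 0.06 (NFE2L1, HOXB) and 0.09 (NFE2L2, HOXD). None of these 9 genes reached 1.5-fold. Other families had members that did: CREB5 beside HOXA was 4.29-fold higher, while its relatives ATF7 beside HOXC (log2 ratio 0.01) and ATF2 beside HOXD (-0.23) were not past 1.5-fold, and COPZ2 beside HOXB was 1.53-fold higher, with COPZ1 beside HOXC at a log2 ratio of 0.03. The SCRN genes had log2 ratios of -0.27 (SCRN1, HOXA), -0.30 (SCRN2, HOXB) and -0.09 (SCRN3, HOXD). The ATP synthase genes ATP5G1 beside HOXB and ATP5G2 beside HOXC had 0.10 and 0.01, and ATP5G3 beside HOXD was level with 192 FPKM in both columns. HNRNPA1 and CBX3 have many near-identical pseudogenes, so their reads may be divided among copies.

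**Figure D4:**
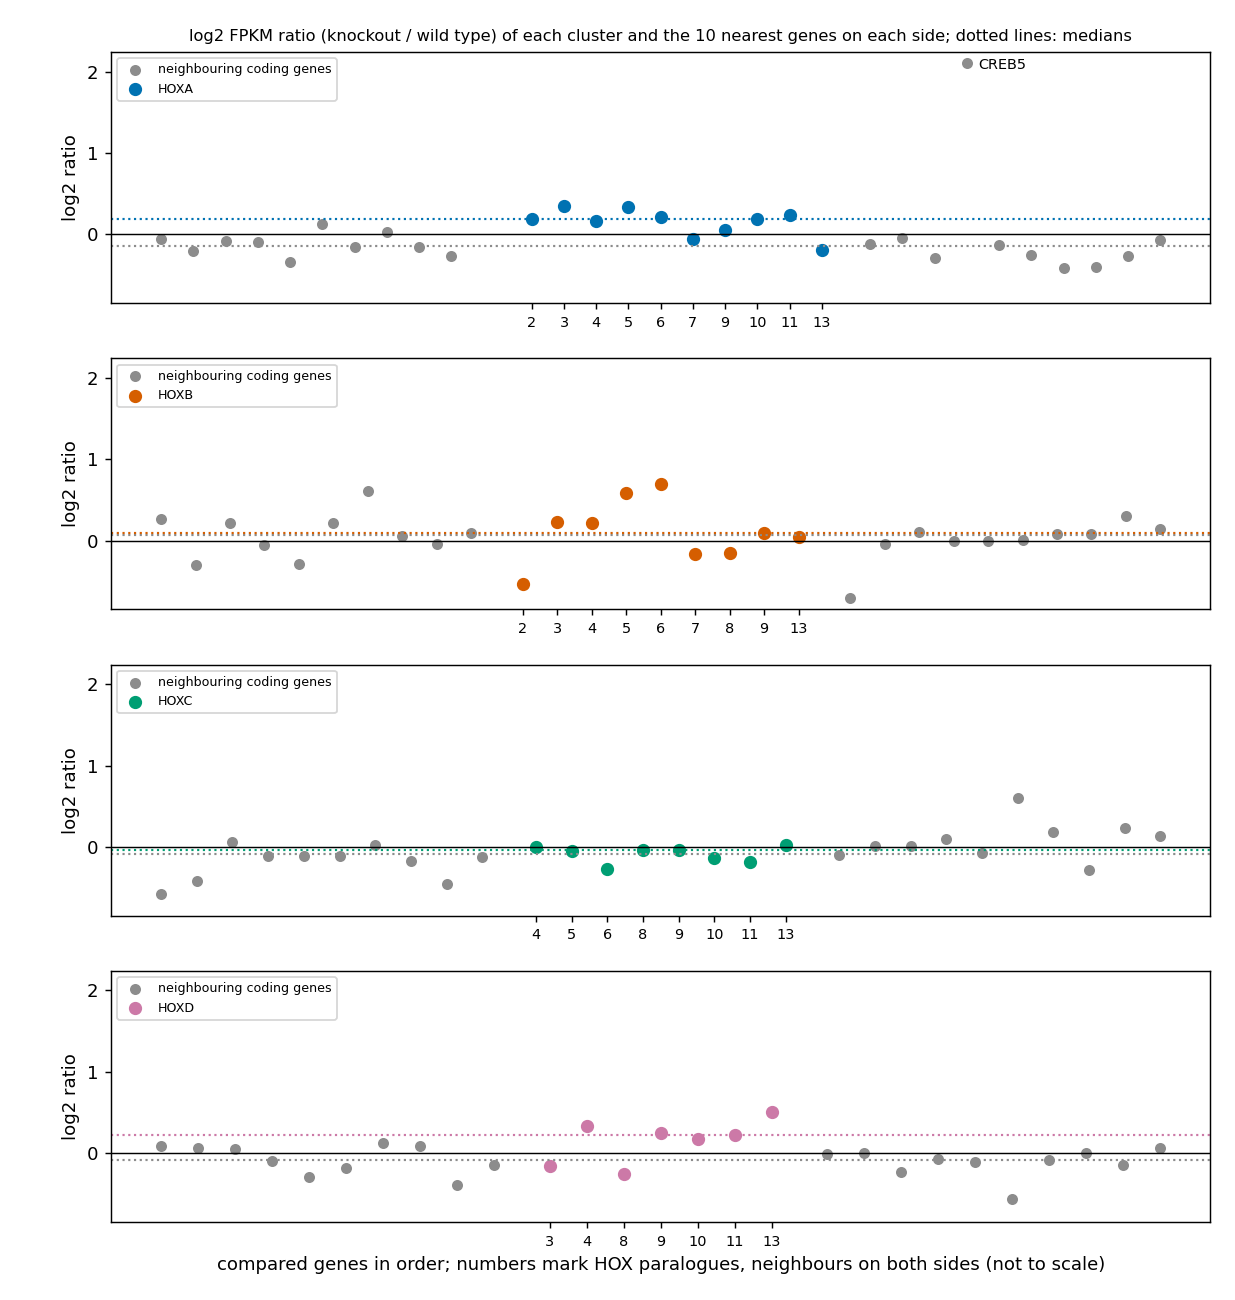
The log2 ratio of knockout over wild type (vertical) of the compared HOX genes (coloured, numbered by paralogue, from group 2 on) and of the 10 nearest compared coding genes on each side (grey), in gene order and not to scale. Dotted lines are the medians of the cluster (coloured) and of its neighbours (grey): 0.19 and -0.14 for HOXA, 0.09 and 0.07 for HOXB, -0.04 and -0.09 for HOXC, and 0.22 and -0.08 for HOXD.

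The promoters of the paralogues HOXD13 and HOXA13 are shown because these genes of the same number had ratios of opposite sign and neither overlaps another coding gene. The windows, from RefSeq on GRCh38.p14, hold 250 bases before and 50 after the start, written 5′ to 3′ on the gene's strand. Capitals mark matches on either strand to the box CCAAT, to the TATA-box form TATAAA, and to a form of the site bound by PBX and HOX proteins together, TGATNNAT. The windows are chr2:176092471-176092770 on the plus strand and chr7:27200042-27200341 on the minus strand.
HOXD13: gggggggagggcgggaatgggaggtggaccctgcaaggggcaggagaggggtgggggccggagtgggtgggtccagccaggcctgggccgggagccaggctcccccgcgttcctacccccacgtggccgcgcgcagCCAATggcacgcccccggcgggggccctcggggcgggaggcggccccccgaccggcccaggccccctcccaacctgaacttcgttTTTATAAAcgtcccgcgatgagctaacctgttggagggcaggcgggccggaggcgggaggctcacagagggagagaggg
HOXA13: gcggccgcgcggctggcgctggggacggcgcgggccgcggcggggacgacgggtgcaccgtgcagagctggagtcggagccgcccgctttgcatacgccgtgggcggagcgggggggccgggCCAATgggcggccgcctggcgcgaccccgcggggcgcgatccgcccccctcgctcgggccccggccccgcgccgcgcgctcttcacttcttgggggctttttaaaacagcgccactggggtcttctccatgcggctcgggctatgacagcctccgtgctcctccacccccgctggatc
Both windows held CCAAT, and HOXD13 also held TATAAA, where overlapping matches on the 2 strands run together. The table used gave 27 windows of 20 HOX genes, 16 windows of 9 HOXA genes, 8 of 8 HOXD genes, 2 of HOXC and 1 of HOXB, so the shares below are mainly those of HOXA and HOXD. HOXC4 and HOXC5 share a window, and HOXA3 has 7. CCAAT was present in 18 of the 27 (66.7%) and in 34.6% of 35116 promoters (17 of 26 with the shared window counted once, and 16 of 19 without HOXA3 as well, both added after the values were seen), TATAAA in 5 (18.5%) and in 11.5%, and TGATNNAT in 3 (11.1%) and in 7.40%. The HOX windows held a median of 22 CpG dinucleotides, against 14 in all promoters. These matches describe sequence and not binding.

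HOX coding sequences are short and rich in G and C. The median length was 870 bases against 1446 in the compared genes, and the median GC content 62.5% against 52.3%. The pentamer TGGAG, a G-rich element of the kind the series concerns, was present in 34 of 39 HOX coding sequences (87.2%) and in 93.9% of the compared genes. It was densest in HOXB, with a median of 4.21 per kb, against 2.66 in HOXA, 1.502 in HOXC, 1.23 in HOXD and 2.84 in the compared genes. HOXB2 had 4 of them, HOXB6 had 2, HOXB5 had 1 and HOXD13 had 3. Members with none were HOXA11, HOXA13, HOXC4, HOXC13 and HOXD4, whose log2 ratios of 0.24, -0.20, -0.00, 0.02 and 0.34 lay on both sides of 0. Binding and translation were not analysed here.

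The partners and regulators of HOX genes were described from lists made for this purpose. TALE homeodomain proteins bind DNA together with HOX proteins, and of 12 such genes and their partners 11 were compared, 5 above and 6 below 0, with a median of -0.01 and none at 1.5-fold. MEIS1 had 11.8 and 15.8 FPKM (log2 ratio 0.42). The others that are reported lay from -0.15 (MEIS3) to 0.15 (TGIF1), with PBX3 at 0.11, MEIS2 at 0.08, PKNOX1 at -0.14, PKNOX2 at -0.08, PBX4 at -0.08, TGIF2 at 0.03 and PBXIP1 at -0.01.

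Most of the compared chromatin regulators of the clusters differed by less than 1.5-fold. RING1, PCGF2 and KMT2B, which are on these lists, were given as 0 FPKM in both columns and were not compared. PBX2 of the TALE list was given in the same way. Whether these genes were silent or were not quantified cannot be told from the values. Polycomb repressive complex 2, which writes H3K27 methylation, had a median of 0.10 over 11 genes, 9 of them above 0, and its 2 most abundant genes were RBBP7 (-0.18) and RBBP4 (0.08). Polycomb repressive complex 1 had a median of 0.09 over 17 genes, of which PCGF1 was 1.60-fold lower (32.6 and 20.4 FPKM) and none was higher by 1.5-fold. MLL and trithorax genes were at a median of 0.06 in 13 genes, with PSIP1 at -0.09 and KMT2D at 0.14. The H3K27 demethylase gene KDM6B had 7.47 and 11.4 FPKM, a 1.53-fold difference, and its relative KDM6A a log2 ratio of 0.18. CTCF and cohesin set the borders of HOX domains. The list of CTCF, cohesin and related genes, to which MAZ was added, had a median of 0.01 over 11 genes. SMC1A was at -0.02 and MAZ at 0.03.

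Upstream signals and other homeobox genes lay on both sides of 0. Retinoic acid is the classical inducer of anterior HOX genes, and the 13 compared genes of its pathway had a median of -0.06. Of these 13, 1 that is not named here was lower by 1.5-fold or more (background 2.78%) and 0 were higher (background 1.48%). Of the CDX and ParaHox factors CDX2 alone was compared, at 4.93 and 6.64 FPKM (log2 ratio 0.43), and the 6 compared genes of the list of other upstream regulators had a median of -0.07, with TFAP2A at -0.10 and LIN28B at -0.17. From a list of 39 homeobox genes outside the clusters, without the TALE genes, 27 were compared. Their median was 0.03, close to that of all compared genes. NKX2-1 (2.28 and 1.41 FPKM, log2 ratio -0.69) and VAX1 (1.24 and 0.686 FPKM, -0.86) were lower by more than 1.5-fold. Both had low levels, and VAX1 was below 1 FPKM in knockout. Of 2785 genes with a mean of 1 to 5 FPKM, 12.3% passed 1.5-fold either way. The middle 95% of these genes had log2 ratios between -0.86 and 0.72, a range that held NKX2-1. For 18 HOX partners and reported targets the median was 0.05, with FOXO1 1.75-fold higher at 9.33 and 16.3 FPKM. The kidney network in which HOX11 genes act had a median of -0.15 over 9 genes, 7 of them below 0. None of the 9 passed 1.5-fold, and SALL1, among the 2 most abundant, had a log2 ratio of -0.14. EVX1 and EVX2, the homeobox genes beside HOXA13 and HOXD13, and PRAC1 and PRAC2 beside HOXB13 were all below 1 FPKM.

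**Figure D5:**
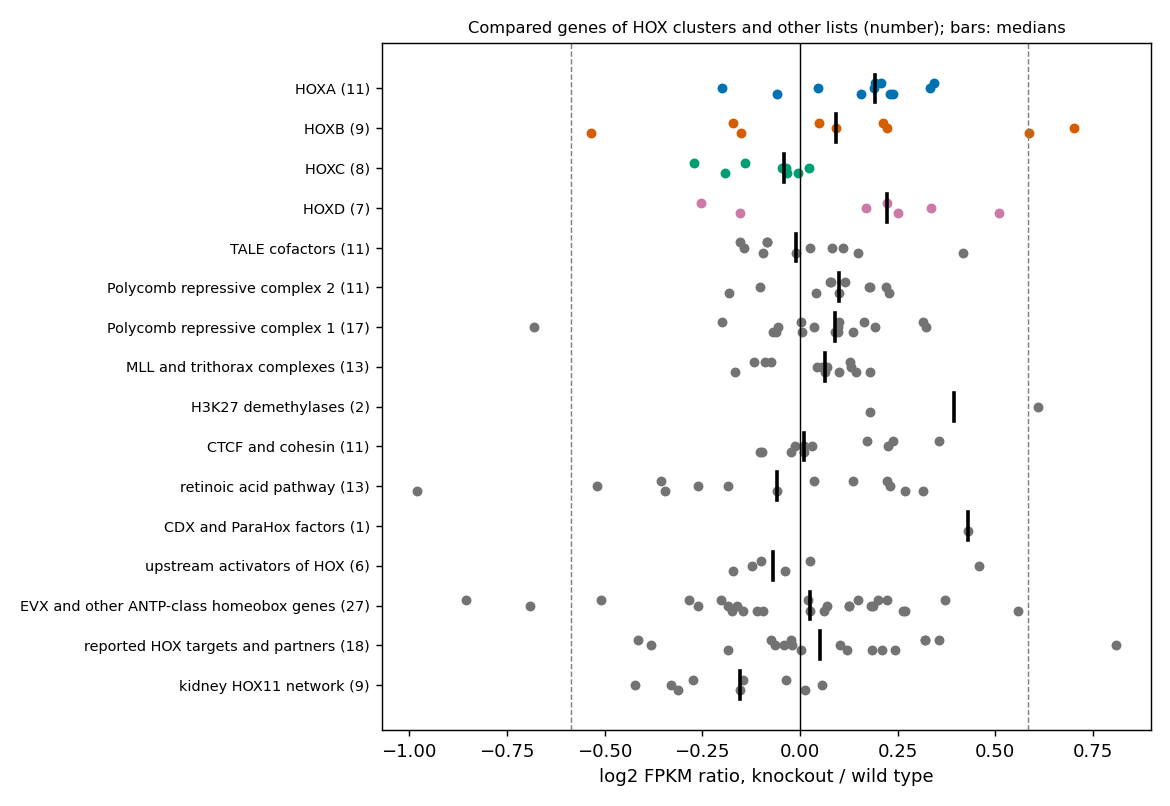
The log2 ratio of knockout over wild type (horizontal) of the compared genes in each HOX cluster (coloured) and in each list of partners, regulators and related genes (grey), with the number of genes in brackets. Black bars are medians and dashed lines mark 1.5-fold. The medians run from 0.22 for HOXD to -0.15 for the kidney network among groups of more than 2 genes.

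The labels of the columns could not be checked by the level of CNBP, which was listed with 202 and 214 FPKM. A frameshift made by Cas9 can leave mRNA in place, and every direction above rests on the column labels.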

How the data were processed

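Per the labels' protocols, a directional library kit was used. Per the submitters' processing notes, which give no versions, the tools were TopHat, Cufflinks and Cuffdiff on hg19. The deposited table holds FPKM values made by the authors, 1 per gene for the 3 wild-type libraries and 1 for the 3 knockout libraries. Its header names no unit, which was inferred from the tools and values. Read depth, gene annotation and the way libraries were combined were not given in the sources used here, nor whether the libraries were separate cultures.

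Ratios were computed from the 2 values with no pseudocount, for genes with at least 1 FPKM in one column and above 0 in both. With no values per library or p-values in the table, a linear model over libraries could not be run, and genes were counted at 1.5-fold. The members, lists and tests were chosen with earlier results of these data known. Genes of each list past 1.5-fold (up to 4), or else its 2 most abundant, were named, and all compared TALE genes. Some genes that this rule selects, and some sequences, are not reported here. Other genes named were chosen after their values were seen.

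Symbols of 26 genes turned into dates were restored by Ensembl ID (19130 of 19892 IDs were in the name table). Gene order, overlaps and coding sequences came from GENCODE release 29 by Ensembl ID, on a build other than the authors', so overlaps may differ from the annotation they used. All 39 HOX genes matched it. The longest coding sequence that holds the homeobox was used. The antisense RNAs inside the clusters were not analysed here. The ratio and count steps were tested on simulated data. Alternatives were other FPKM minimums, pseudocounts, centring, thresholds, overlapping genes left out and the neighbours' median taken off. Python 3.11.15, numpy 2.4.6, pandas 2.3.3, Biopython 1.88 and matplotlib 3.10.9 were used.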

Additional observations from a re-analysis of the deposited data

How the results depend on the processing

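No paired analysis was possible because the table holds 1 value per group, and for the same reason no replicate could be left out. The medians of all HOX genes, of HOXD and of the anterior and posterior classes moved by at most 0.1 under every alternative that was run. The median of the central class, -0.0037, was 0.077 with a minimum of 5 FPKM, 0.0026 after centring and 0.087 with the neighbours' median taken off. That last alternative gave 0.34 for HOXA and 0.050 for HOXC, whose sign changed. With the members that overlap a coding gene on the same strand left out, 12 were compared, 7 of them above 0 and 0 higher by 1.5-fold. The HOXB median was then -0.24, the central median -0.16, and the summed ratios -0.038 for HOXA and -0.52 for HOXB. The largest member left in the HOXA sum was HOXA13 (32.0 and 27.9 FPKM). In the HOXB sum HOXB2 (119 and 82.4 FPKM) was left with HOXB13 (1.89 and 1.95 FPKM) only. The count of HOX genes higher by 1.5-fold was 1 in place of 2 with a pseudocount of 1 or of 0.1, since HOXB5 lies at the threshold (log2 ratio 0.51 and 0.58). It was 0 at 2-fold and 6 at the looser threshold, a log2 ratio of 0.32. The count of lower genes was 1 in place of 0 without a minimum, through HOXC12, 1 with the neighbours' median taken off, through HOXB2 (-0.60), and 1 at the looser threshold. The summed HOXB ratio was 0.29 without HOXB2 and -0.19 without HOXB6, both chosen after seeing the data. Of 218 values for single genes, 202 moved by at most 0.1 and kept their side of 1.5-fold. With 1 value per group and unknown depth, no difference can be set against the spread between libraries.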
